A study of Mus musculus with 12 samples.

Results

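The genes examined were 10 genes of the ATF4 stress response and of serine synthesis, namely *Atf4*, *Ddit3*, *Trib3*, *Asns*, *Chac1*, *Phgdh*, *Psat1*, *Psph*, *Shmt2* and *Mthfd2*. They were chosen by name as members of this pathway and found in the count matrix by their Ensembl identifiers, with earlier results of these data known but no threshold on a measured value. All 10 of them were found among the 56980 genes of the matrix, and all 10 passed the filter on low counts, which left 15583 genes in the 6 WT libraries and 17691 genes in all 12 libraries.

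ATF4 is a transcription factor whose protein is made when phosphorylation of the translation factor eIF2 lowers protein synthesis as a whole, the integrated stress response, in which lack of amino acids, unfolded protein, viral RNA or lack of heme each engage a different eIF2 kinase. Much of its control lies in translation, which RNA levels do not measure. ATF4 binds C/EBP-ATF response elements (CAREs) in genes for amino acid uptake, synthesis and tRNA charging, among them the enzymes that make serine from a glycolytic intermediate and those that pass its carbon to folate in mitochondria. In the osteoblast lineage ATF4 is known for its part in amino acid import and in collagen and osteocalcin production.

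W-20 is a murine bone marrow stromal cell line, and bulk RNA-Seq was examined in 3 libraries of each of 4 groups. WT cells, which are unmodified W-20 cells, and Y428F cells, a stable W-20 line with an introduced YAP that carries the Y428F change from tyrosine to phenylalanine, were each exposed for 2 hours to 50 nM parathyroid hormone (PTH) or to vehicle (PBS). These comparisons ask how PTH changes the transcriptome of stromal cells and whether the response differs in cells with the mutated YAP, a transcriptional coactivator of the Hippo pathway. Each library held between 17127897 and 19057319 counts (median 17740980). The Y428F cells were made with a plasmid for Flag-tagged YAP, positive clones were selected with puromycin, and the endogenous *Yap1* gene remains in them. The library titles name the Y428F change alone, whereas the study describes its RNA-Seq comparison as one of WT cells with a line in which this change is joined with a serine-to-alanine substitution that slows YAP breakdown. The group keeps the name in the titles here. The genotype field of the Y428F libraries reads WT, so the line was taken from the titles. No library from cells with an introduced WT YAP was analysed here, so the mutation cannot be told apart from other differences between the lines, and the study's general statement that its experiments were independent does not say whether the 3 libraries of a group came from separate cultures, so p-values measure the spread between these libraries, which may be technical.

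*Yap1* had 181, 192 and 194 CPM (counts after TMM scaling to libraries of equal size) in WT vehicle libraries 1 to 3 and 245, 246 and 230.4 CPM in the WT PTH libraries. In Y428F cells it had 149.6, 141 and 149 CPM with vehicle and 171, 168.5 and 174 CPM with PTH. The libraries titled Y428F were thus below the WT libraries under either treatment, and because counts per gene do not separate the introduced YAP from the endogenous gene, *Yap1* does not check the titles. PTH changed *Yap1* on the log2 scale by 0.36 in WT cells (adjusted p = 0.00154 in edgeR) and by 0.22 in Y428F cells (adjusted p = 0.00740), and the line difference was -0.37 under vehicle (adjusted p = 7.70e-06) and -0.49 under PTH (adjusted p = 1.35e-07). The response to PTH differed by -0.12 between the lines (adjusted p = 0.811). Of the 11 markers of marrow stroma and the osteoblast lineage, 3 were at or near 0, with *Thy1* at 0 counts in every library and *Nt5e* and *Alpl* at no more than 10 counts in any library. The summed level of the 11 markers was 25430 to 29210 CPM in WT cells and 15420 to 19430 CPM in Y428F cells, led by the collagen gene *Col1a2*.

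Promoter sequences are shown for the 3 genes whose start region held a CARE core, since they show where a known ATF4-type element lies relative to the start. RefSeq start regions (250 bases before to 50 bases after each start, from a GRCm38.p6 table, located on GRCm39 by exact match) were searched on both strands for the CARE core TGATGNAA and for the cAMP response element TGACGTCA. All 10 genes had such a region, and *Psat1* had a second one. The CARE core was present in 3 of these 11 regions and in 3.97% of the 32851 regions in the table, and the cAMP element was present in 0 of the 11 and in 1.79% of all. The sequences run 5′ to 3′ along the strand of the gene, and capitals mark the CARE core, which in *Trib3* and *Chac1* lies on the opposite strand.
Trib3: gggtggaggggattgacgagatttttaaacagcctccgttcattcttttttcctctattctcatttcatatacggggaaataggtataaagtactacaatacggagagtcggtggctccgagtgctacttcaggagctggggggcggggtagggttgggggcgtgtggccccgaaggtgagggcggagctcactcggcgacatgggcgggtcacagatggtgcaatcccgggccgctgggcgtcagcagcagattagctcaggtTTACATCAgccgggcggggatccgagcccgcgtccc
Asns: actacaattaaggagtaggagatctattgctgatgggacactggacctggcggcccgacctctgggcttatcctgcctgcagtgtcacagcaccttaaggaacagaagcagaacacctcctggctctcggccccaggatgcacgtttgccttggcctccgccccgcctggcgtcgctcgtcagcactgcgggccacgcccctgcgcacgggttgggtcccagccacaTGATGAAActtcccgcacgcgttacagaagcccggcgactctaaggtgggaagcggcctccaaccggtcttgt
Chac1: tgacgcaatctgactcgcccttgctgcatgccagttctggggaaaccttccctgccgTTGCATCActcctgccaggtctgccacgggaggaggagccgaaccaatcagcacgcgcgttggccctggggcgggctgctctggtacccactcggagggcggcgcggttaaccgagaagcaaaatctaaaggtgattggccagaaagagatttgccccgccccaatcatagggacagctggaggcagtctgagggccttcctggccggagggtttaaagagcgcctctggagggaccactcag
These regions lie at chr2:152185931-152186230 (minus strand), chr6:7693160-7693459 (minus strand) and chr2:119181473-119181772 (plus strand) of GRCm39, in that order. The core began 15 bases into the transcript in *Trib3*, 23 bases before the start in *Asns* and 193 bases before the start in *Chac1*. A match of letters is a description of the sequence and not a site shown to be bound, and elements outside these 300 bases were not searched.

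Per length, *Phgdh* and *Atf4* were the most highly expressed of the 10 genes in WT cells with vehicle, at 269 ± 14.7 and 213 ± 22.6 RPKM (SD, n = 3, by the length of the canonical transcript), followed by *Psat1* at 139 ± 16.5 RPKM. *Shmt2* (80.7 ± 5.07 RPKM), *Mthfd2* (70.5 ± 7.11 RPKM) and *Asns* (63.0 ± 5.46 RPKM) came next, and neighbours among these 3 differed by less than the sum of their SDs. *Ddit3* stood at 45.0 ± 0.725 RPKM, and *Trib3*, *Psph* and *Chac1* at 33.4 ± 4.87, 32.3 ± 5.36 and 25.3 ± 2.58 RPKM, again with neighbours closer than the sum of their SDs. In Y428F cells with vehicle *Phgdh* and *Atf4* were close to each other, at 301.5 ± 11.2 and 293 ± 14.99 RPKM. There *Chac1*, which had the lowest mean of the 10 in WT cells with vehicle, stood at 73.1 ± 0.297 RPKM beside *Asns* at 74.5 ± 4.28 RPKM. The canonical transcript of *Asns* is 4901 bases long, the longest of the 10, and a shorter one would raise its RPKM in every group alike.

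**Figure D1:**
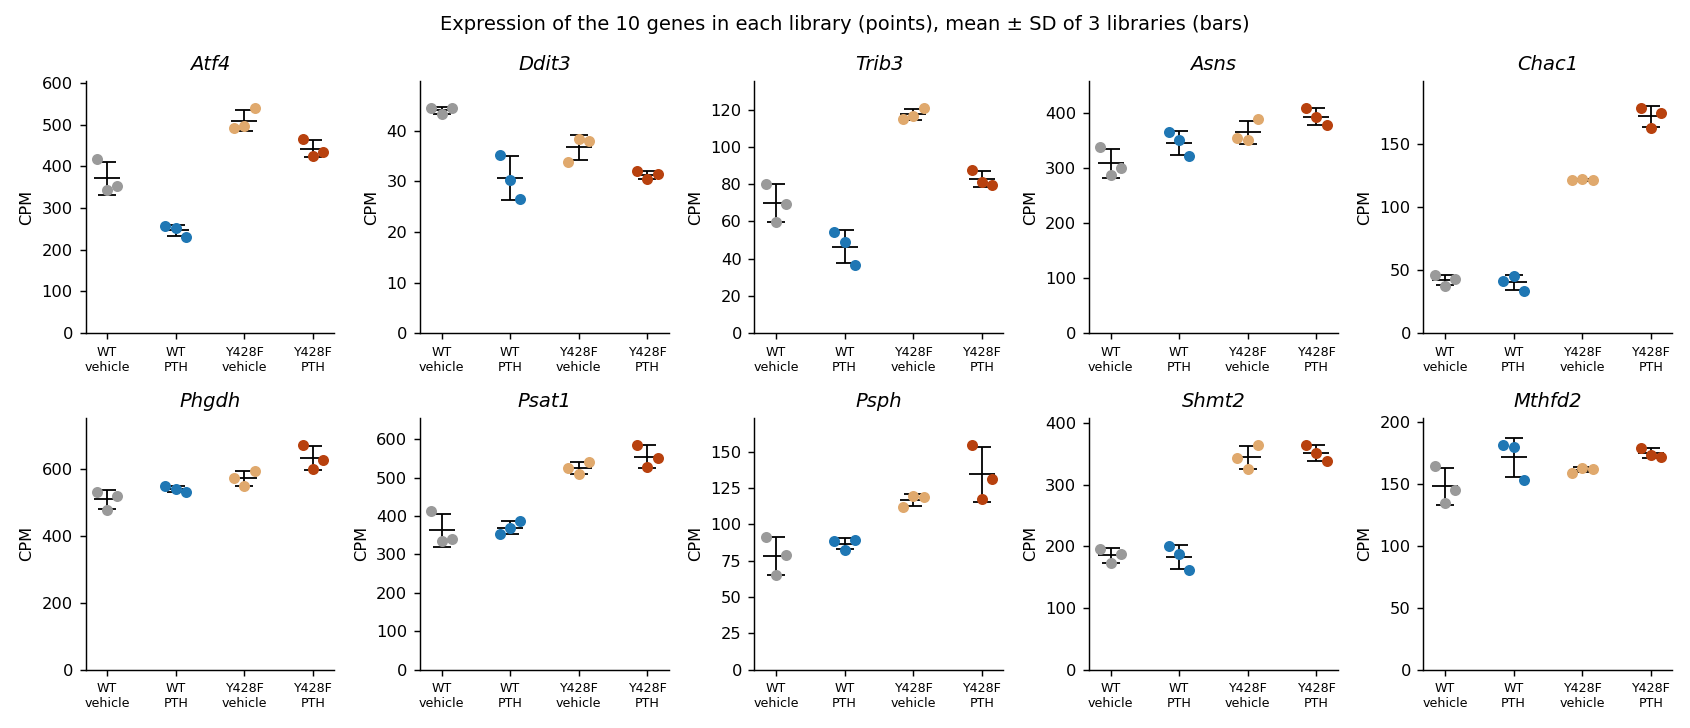
Expression of the 10 genes in CPM (vertical axis, from 0) in each of the 12 libraries (points, 3 per group), with the mean and SD of each group as bars. *Atf4* lies lowest in the WT PTH libraries (230.1 to 256 CPM), and *Chac1* lies between 121 and 178 CPM in Y428F cells and below 46 CPM in WT cells.

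PTH in WT cells was followed by lower RNA of all 3 regulators, *Atf4*, *Ddit3* and *Trib3*, and by no called change in the 7 enzyme genes. A gene counted as called when its p from the quasi-likelihood test of edgeR, adjusted by the Benjamini-Hochberg method over all genes of the fit, was under 0.05. Of the 10 genes 0 were higher and 3 lower, while 6.88% of all genes tested were called higher and 4.91% lower. The 10 genes had a median log2 fold change of 0.01, and all genes one of -0.01. At an unadjusted p under 0.05 edgeR had 2 genes higher, *Asns* and *Mthfd2*, and DESeq2 called 0 higher. The 3 lower genes kept their calls with each library left out in turn, but without WT vehicle library 1, which had more RNA of all 10 genes than the mean of its group, 3 enzyme genes were called higher, *Asns* (log2 fold change 0.26), *Psph* (0.29) and *Mthfd2* (0.31), and without WT PTH library 3 *Mthfd2* was (0.29).

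In Y428F cells PTH was followed by higher *Chac1* and lower *Trib3*, so that 1 of the 10 genes was called higher and 1 lower, against 6.61% and 5.78% of all genes tested. The median log2 fold change was 0.09 for the 10 genes and -0.01 for all genes. *Atf4* and *Ddit3* had lower values in every PTH library than in every vehicle library but did not pass the test in this fit of 12 libraries. A fit of the 6 Y428F libraries alone, the form used for the 6 WT libraries, called 3 genes lower. It added *Atf4* (log2 fold change -0.20, adjusted p = 0.0155) and *Ddit3* (-0.22, adjusted p = 0.0410).

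Between the lines 8 of the 10 genes were higher in Y428F cells under vehicle, and *Ddit3* was lower, against 22.4% of all genes called higher and 22.7% called lower. Under PTH the same 8 were higher and 0 were lower, against 22.8% and 23.0% of all genes. The number lower was also 0 at an unadjusted p under 0.05 in edgeR and by DESeq2. The median log2 fold change of the 10 genes was 0.49 under vehicle and 0.61 under PTH, and that of all genes was 0.01 and 0.02. These comparisons share no library with each other, but each shares libraries with the comparisons of PTH with vehicle, so the values stand side by side and were not set against each other. Since every value is from bulk RNA, fewer cells that express a gene and less RNA per cell cannot be told apart.

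The change with PTH differed between the lines for 1 of the 10 genes, *Chac1*, which was called higher in Y428F relative to WT cells, a call lost in 8 of the 12 fits that left out 1 library, and 0 were called lower by edgeR, also at an unadjusted p under 0.05, or by DESeq2. Of all genes tested, 0.170% were called higher and 0.243% lower in this comparison, 30 and 43 of 17691 genes. For *Atf4* the difference was of the same sign but did not pass the test.

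**Figure D2:**
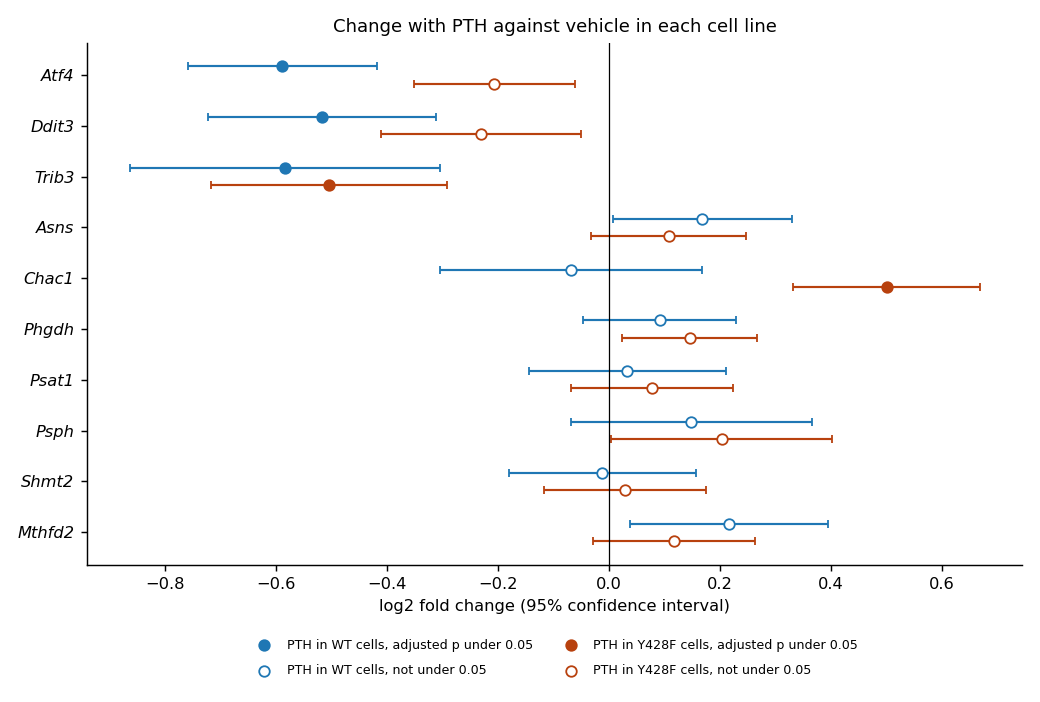
Log2 fold change of each gene with PTH against vehicle (horizontal axis) in WT cells (blue) and Y428F cells (red), with 95% confidence intervals, filled where the adjusted p was under 0.05. The regulators lie left of 0 in both lines, and *Chac1* lies at -0.07 in WT cells and at 0.50 in Y428F cells.

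*Atf4* (chromosome 15, 80139372 to 80141745, plus strand; positions are of GRCm39 in GENCODE vM39), the transcription factor itself, had 416, 344 and 353 CPM in WT vehicle libraries 1 to 3 and 256, 252 and 230.1 CPM in the WT PTH libraries. In Y428F cells it had 493, 496 and 539.5 CPM with vehicle and 465, 425.5 and 435 CPM with PTH. No group overlapped with another, and the order from high to low was Y428F vehicle, Y428F PTH, WT vehicle and WT PTH. Changes and differences here and below are log2 fold changes. The change with PTH was -0.59 in WT cells (SE 0.079, adjusted p = 0.000334), to 0.665 of the vehicle level. In Y428F cells it was -0.21 (SE 0.069, adjusted p = 0.059), just short of the threshold, and 7 of 16 alternatives called it lower. The line difference was 0.46 under vehicle (adjusted p = 1.50e-05) and 0.84 under PTH (adjusted p = 3.49e-09). The change with PTH in Y428F minus that in WT cells was 0.39 with a 95% confidence interval from 0.18 to 0.59 (adjusted p = 0.128), which passed the threshold with DESeq2 (adjusted p = 0.0210), without the filter on low counts (0.00191) and with offsets for transcript length and GC content (0.0285).

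*Ddit3* (chromosome 10, 127124268 to 127132163, plus strand) encodes CHOP, a factor downstream of ATF4 that is known for its part in cell death under lasting stress. It had 44.5, 43.3 and 44.5 CPM in WT vehicle libraries and 35.3, 30.3 and 26.5 CPM in WT PTH libraries, with no overlap. The log2 fold change was -0.52 (SE 0.095, adjusted p = 0.00332). In Y428F cells it had 33.85, 38.4 and 38.0 CPM with vehicle and 32.1, 30.5 and 31.5 CPM with PTH. That change was -0.23 (SE 0.086, adjusted p = 0.0942) and passed the threshold when scaled by library totals alone (adjusted p = 0.0385) and in a fit of the 6 Y428F libraries (0.0410). *Ddit3* was the 1 gene of the 10 called lower in Y428F than in WT cells under vehicle, at -0.26 (adjusted p = 0.0150), although without Y428F vehicle library 1 this call was lost (-0.21, adjusted p = 0.0753). Under PTH the lines overlapped, at 0.03 with a 95% confidence interval from -0.15 to 0.21. Exons of *Mbd6* and *Mars1* overlap *Ddit3* on the opposite strand, with 13997 and 37503 counts over the 12 libraries, and since the sources leave it unsettled whether these libraries kept strand, reads could be shared between the genes.

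*Trib3* (chromosome 2, 152179337 to 152191958, minus strand) encodes a pseudokinase that is induced by ATF4 and CHOP and restrains ATF4. It had 80.2, 59.8 and 69.5 CPM in WT vehicle libraries and 54.2, 48.7 and 36.6 CPM in WT PTH libraries, so that every PTH library was below every vehicle library in WT cells. In Y428F cells the values were 115, 117 and 121 CPM with vehicle and 87.85, 81.3 and 79.6 CPM with PTH. In these fits, of 6 WT libraries and of all 12 libraries, *Trib3* was the only gene of the 10 called lower with PTH in both lines. Its change was -0.58 in WT cells (SE 0.13, adjusted p = 0.0106) and -0.50 in Y428F cells (SE 0.10, adjusted p = 0.00214). With the 6 Y428F libraries fitted alone, *Atf4* (adjusted p = 0.0155) and *Ddit3* (adjusted p = 0.0410) were called lower in that line too. The change of *Trib3* with PTH differed by 0.08 between the lines, with a 95% confidence interval from -0.23 to 0.39. The level of *Trib3* in Y428F cells was higher by 0.75 under vehicle (adjusted p = 3.85e-06) and by 0.84 under PTH (adjusted p = 1.60e-06).

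*Asns* (chromosome 6, 7671667 to 7728461, minus strand), which encodes asparagine synthetase, a classical CARE gene, had 339, 288 and 299.6 CPM in WT vehicle libraries and 365, 351 and 321 CPM in WT PTH libraries. The log2 fold change with PTH was 0.17 (adjusted p = 0.176) in WT cells, where the groups overlapped. In Y428F cells the values were 354.5, 352 and 389 CPM with vehicle and 409, 393 and 379 CPM with PTH, a change of 0.11 (adjusted p = 0.356). Y428F cells had more *Asns* under vehicle (0.24, adjusted p = 0.00552) and under PTH (0.19, adjusted p = 0.0276), the latter call being lost without WT PTH library 3 (0.14, adjusted p = 0.120), Y428F PTH library 1 (0.15, 0.114) or Y428F PTH library 2 (0.18, 0.0675).

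*Chac1* (chromosome 2, 119180757 to 119184866, plus strand) encodes a glutathione-degrading enzyme that is induced through ATF4. It had 45.9, 37.5 and 43.0 CPM in WT vehicle libraries and 41.4, 45.5 and 33.3 CPM in WT PTH libraries, which overlapped. In Y428F cells it had 121, 122 and 121 CPM with vehicle and 178, 163 and 175 CPM with PTH. Both Y428F groups lay above all 6 WT libraries, and the Y428F PTH libraries lay above the Y428F vehicle libraries. PTH changed *Chac1* by 0.50 in Y428F cells (SE 0.080, adjusted p = 0.000248) and by -0.07 in WT cells (SE 0.11, adjusted p = 0.774). *Chac1* had the largest line difference of the 10 genes, with log2 fold changes of 1.53 under vehicle (95% confidence interval from 1.35 to 1.71, adjusted p = 8.74e-12) and 2.10 under PTH (from 1.92 to 2.28, adjusted p = 7.76e-14). The response to PTH differed between the lines by 0.57 (SE 0.12, 95% confidence interval from 0.32 to 0.83, adjusted p = 0.0355). That call was lost in 8 of the 12 fits that left out 1 library, namely WT vehicle library 1 (0.50, adjusted p = 0.0725) or 3 (0.57, 0.0950), WT PTH library 1 (0.61, 0.0847), any of the Y428F vehicle libraries (0.57, 0.107 and 0.57, 0.104 and 0.57, 0.0948) and Y428F PTH library 1 (0.54, 0.0642) or 3 (0.56, 0.104).

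The 3 enzymes that turn a glycolytic intermediate into serine were higher in Y428F cells under either treatment, against 22.4% of all genes under vehicle and 22.8% under PTH. With PTH 0 of the 3 were called in either line by edgeR. Of all genes 6.88% were higher and 4.91% lower in WT cells, and 6.61% and 5.78% in Y428F cells. At an unadjusted p under 0.05 edgeR had 0 in WT cells and 2 higher in Y428F cells. DESeq2 called *Phgdh* higher in Y428F cells (adjusted p = 0.0427). *Phgdh* (chromosome 3, 98220484 to 98255047, minus strand), the first enzyme of the route, had 529, 477 and 519.6 CPM in WT vehicle libraries and 549, 539.7 and 529.8 CPM in WT PTH libraries. In Y428F cells it had 571, 549 and 592 CPM with vehicle and 671, 599 and 624.5 CPM with PTH. In both lines the PTH libraries all lay above the vehicle libraries, but the changes of 0.09 (adjusted p = 0.426) and 0.15 (adjusted p = 0.114) did not pass the test, whereas with offsets for length and GC content they were 0.18 (adjusted p = 0.0294) and 0.24 (adjusted p = 0.00131). *Phgdh* was higher in Y428F cells by 0.17 under vehicle (adjusted p = 0.0239) and by 0.23 under PTH (adjusted p = 0.00282). The call under vehicle was lost without WT vehicle library 2 (0.12, adjusted p = 0.138) or Y428F vehicle library 1 (0.16, 0.0698) or 3 (0.14, 0.116).

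*Psat1* (chromosome 19, 15882039 to 15924701, minus strand), which encodes the transaminase of the second step, had 413, 335 and 341 CPM in WT vehicle libraries, 354, 369 and 386 CPM in WT PTH libraries, 524, 510.5 and 541.5 CPM in Y428F vehicle libraries and 585, 528 and 550.3 CPM in Y428F PTH libraries. The lines did not overlap, and within each line the treatments did. The line difference was 0.53 under vehicle (adjusted p = 2.30e-06) and 0.58 under PTH (adjusted p = 6.41e-07). The changes with PTH were 0.03 (95% confidence interval from -0.14 to 0.21) in WT cells and 0.08 (from -0.07 to 0.22) in Y428F cells.

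*Psph* (chromosome 5, 129841925 to 129864513, minus strand), which encodes the phosphatase of the last step, had 91.4, 65.4 and 78.7 CPM in WT vehicle libraries, 88.7, 82.4 and 89.0 CPM in WT PTH libraries, 112, 119.5 and 119 CPM in Y428F vehicle libraries and 155, 117 and 131 CPM in Y428F PTH libraries. Every Y428F library was above every WT library, by 0.57 under vehicle (adjusted p = 5.72e-05) and 0.63 under PTH (adjusted p = 1.60e-05). Its changes with PTH were 0.15 (adjusted p = 0.410) in WT cells and 0.20 (adjusted p = 0.194) in Y428F cells. The change in Y428F cells passed the threshold of edgeR without a filter on low counts (0.21, adjusted p = 0.0150). It also passed with offsets for length and GC content together with a replicate block (0.23, adjusted p = 0.0213). Exons of *Cct6a*, with 63026 counts over the 12 libraries, overlap *Psph* on the opposite strand.

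*Shmt2* (chromosome 10, 127352266 to 127358323, minus strand) encodes the mitochondrial enzyme that moves a carbon unit from serine to folate, and *Mthfd2* (chromosome 6, 83282673 to 83302890, minus strand) encodes a mitochondrial folate dehydrogenase of the following step. *Shmt2* had 195.5, 173 and 188 CPM in WT vehicle libraries, 200, 188 and 162 CPM in WT PTH libraries, 342.5, 326 and 364 CPM in Y428F vehicle libraries and 365, 351 and 338 CPM in Y428F PTH libraries. Its level was higher in Y428F cells with no overlap, by 0.89 under vehicle (SE 0.071, adjusted p = 1.88e-09) and 0.94 under PTH (SE 0.071, adjusted p = 9.02e-10), while its changes with PTH were -0.01 (95% confidence interval from -0.18 to 0.16) in WT cells and 0.03 (from -0.12 to 0.17) in Y428F cells. *Mthfd2* had 164, 135 and 145 CPM in WT vehicle libraries, 182, 179.5 and 153 CPM in WT PTH libraries, 159, 163 and 162 CPM in Y428F vehicle libraries and 179, 174 and 172 CPM in Y428F PTH libraries. The test called it in 0 of the 5 comparisons. The lines differed by 0.12 under vehicle (95% confidence interval from -0.02 to 0.27) and by 0.03 under PTH (from -0.12 to 0.17), and the vehicle value reached the threshold without WT vehicle library 1 (0.20, adjusted p = 0.0138) and when scaled by library totals alone (0.18, adjusted p = 0.0361). Its change with PTH in WT cells, 0.22 (adjusted p = 0.114), was called in 5 of 16 alternatives.

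**Figure D3:**
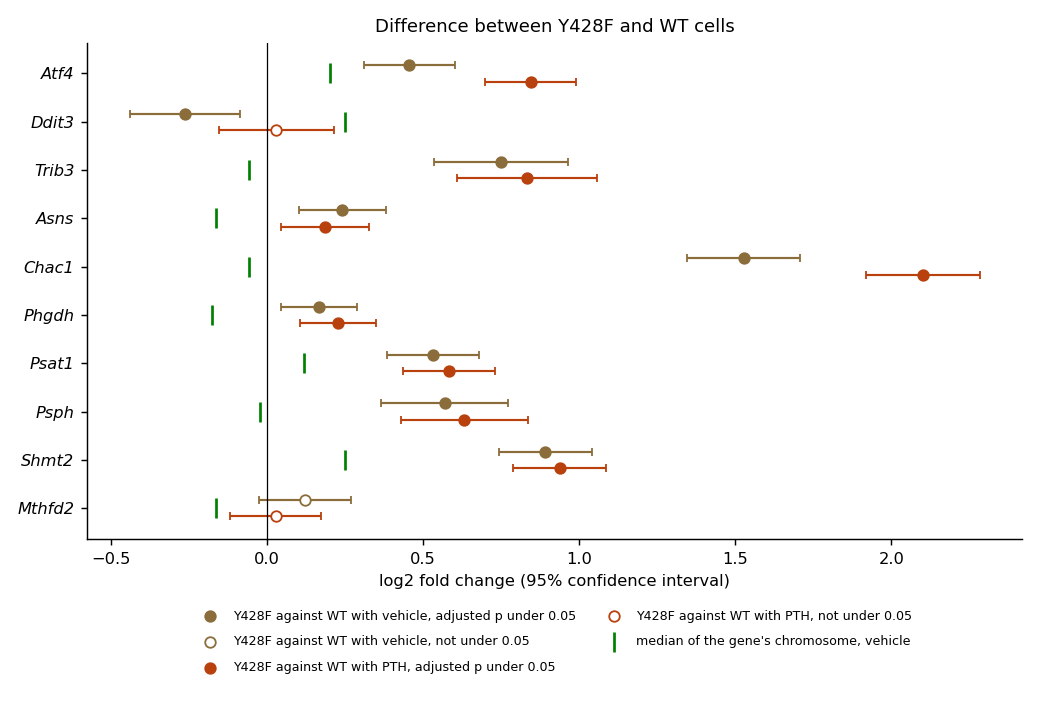
Log2 fold change of each gene in Y428F against WT cells (horizontal axis) under vehicle (brown) and under PTH (red), with 95% confidence intervals, filled where the adjusted p was under 0.05. Green bars mark the median of all genes with at least 4 CPM on the same chromosome, and *Chac1* lies farthest to the right, at 1.53 and 2.10.

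The line difference under vehicle was set beside the median of the genes on the same chromosome with a mean of at least 4 CPM. This median was 0.25 on chromosome 10, which holds *Shmt2* and *Ddit3*, 0.20 on chromosome 15 with *Atf4* and 0.12 on chromosome 19 with *Psat1*. It was -0.06 on chromosome 2 with *Chac1* and *Trib3*, -0.17 on chromosome 3 with *Phgdh*, -0.02 on chromosome 5 with *Psph* and -0.16 on chromosome 6 with *Asns* and *Mthfd2*. *Ddit3* was thus lower in Y428F cells on a chromosome whose genes were on the whole higher. Of the 8 genes called higher, *Shmt2* (0.89), *Atf4* (0.46) and *Psat1* (0.53) lay above the positive medians of their chromosomes. The rest were on chromosomes with a negative median, where any gene called higher lies above it, so the comparison says nothing about them. The part of the chromosome medians in the line difference of each gene was not tested.

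Markers of other cell types also differed between the lines, in comparisons that called 22.4% of all genes higher and 22.7% lower under vehicle and 22.8% and 23.0% under PTH. The 6 macrophage and leukocyte markers summed to 1.42 to 2.74 CPM (median 1.96) in WT libraries and 5.81 to 7.93 CPM (median 7.21) in Y428F libraries, with *Ptprc* the most abundant at a mean of 1.91 CPM, and 2 of the 5 tested were higher under each treatment. The 4 endothelial markers summed to 0.910 to 1.77 CPM in WT and 6.12 to 9.94 CPM in Y428F libraries, most of it *Cdh5* (a mean of 3.78 CPM), the only one called higher of the 4. The 4 epithelial markers, led by *Cdh1* at 0.309 CPM, with *Epcam* and *Krt5* at 0 in every library, summed to at most 0.177 CPM in WT and 0.983 CPM in Y428F libraries, and 1 of the 2 tested was higher under each treatment. The 4 adipocyte markers summed to at most 0.349 CPM, with *Adipoq* at 0. Of the 9 stromal markers tested 7 were lower in Y428F cells under vehicle and 8 under PTH, and with PTH *Vim* was higher and *Pdgfra* lower in both lines and *Col1a1* lower in Y428F cells. These levels moved with the line in the same libraries as the 8 higher genes, and their part in the differences was not tested.

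The 10 genes also varied together among libraries of the same group. WT vehicle library 1 and Y428F PTH library 1 were above the mean of their group for 10 of 10 genes, and WT vehicle library 2 and Y428F PTH library 2 for 0 of 10, whereas 47.1%, 49.9%, 51.9% and 51.6% of the 10429 genes with at least 4 CPM were above it in these libraries. The median deviation on the log2 scale was 0.15 in WT vehicle library 1 and -0.11 in WT vehicle library 2, larger than in the Y428F PTH libraries at 0.07 and -0.05. Over the 45 pairs of genes, Pearson's r of these deviations across the 12 libraries had a median of 0.69 (range -0.17 to 0.96), with 44 pairs above 0, a description of points that share library and depth. In the same libraries the deviations of all genes followed transcript length, with a Spearman's rho of -0.35 in WT vehicle library 1 and -0.50 in Y428F PTH library 1 and of 0.21 and 0.49 in WT vehicle library 2 and Y428F PTH library 2, whereas WT PTH library 3 (rho of -0.37, with 2 of 10 genes above the mean) and WT PTH library 2 (rho of 0.405, with 7 of 10 above) went the other way. The part of this in the shared variation of the 10 genes was not tested.

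**Figure D4:**
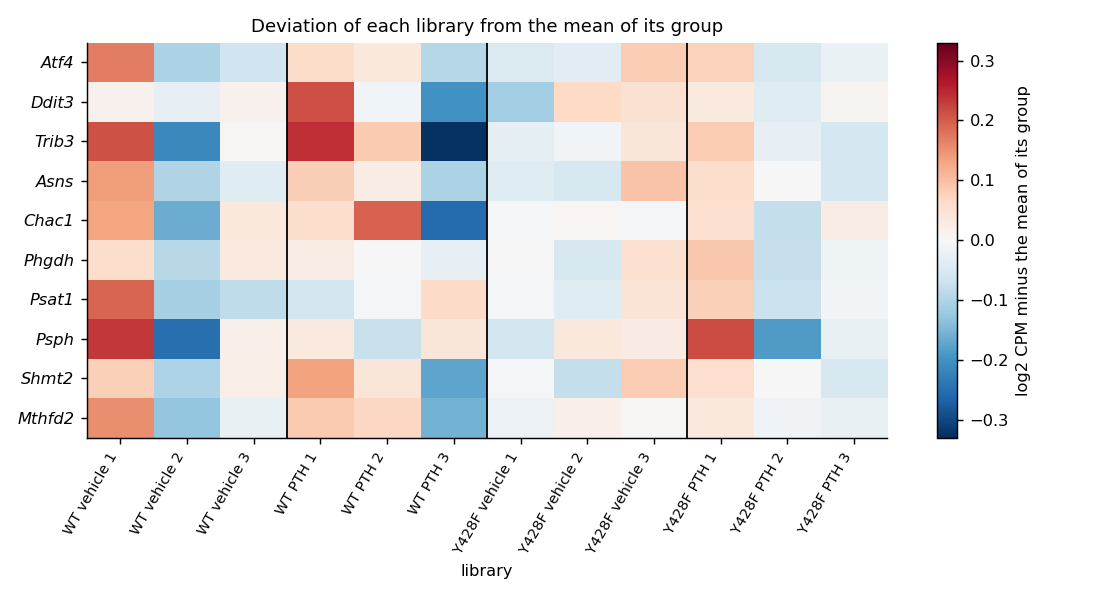
Deviation of each library's log2 CPM from the mean of its group (color, from blue below to red above) for the 10 genes (rows) in the 12 libraries (columns, with lines between the groups). Columns of 1 color mark libraries in which all 10 genes deviate alike, such as WT vehicle library 1 above and WT vehicle library 2 below the mean.

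The genes whose pattern over the 12 libraries was most like that of *Atf4*, by Pearson's r of log2 CPM among the 10429 genes, were *Ddit4* (0.98), *Nuak2* (0.97), *Dzip3* (0.97), *Ezh2* (0.97) and *Kifc5b* (0.96). For *Asns* they were the glycyl-tRNA synthetase gene *Gars1* (0.98), *Lpl* (0.95), *Snx12* (0.95), the threonyl-tRNA synthetase gene *Tars1* (0.95) and *Tdg-ps2* (0.94). For *Phgdh* they were *Psmd7*, *Slc39a14*, *Hspb8*, *Marchf5* and *Mrto4*, all with r of 0.96. *Trib3* had an r of 0.965 with *Atf4*, equal at 3 decimals to that of *Kifc5b*, and the points share library, group and depth.

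Among other stress genes that ATF4 is known to induce, 2 of 7 tested were lower and 0 higher with PTH in WT cells (1 higher at an unadjusted p under 0.05 in edgeR, 0 by DESeq2), and 3 of 8 were lower and 0 higher in Y428F cells (0 and 0). The shares of all genes were 4.91% lower and 6.88% higher in WT cells and 5.78% and 6.61% in Y428F cells. The medians of the list were 0.01 and -0.45. *Ddit4*, which encodes an inhibitor of mTORC1, fell in WT cells from a mean of 63.2 to 36.2 CPM (log2 fold change -0.80, adjusted p = 2.88e-05) and in Y428F cells from 118 to 97.1 CPM (-0.29, adjusted p = 0.00808), the latter call being lost without Y428F vehicle library 1 (-0.25, adjusted p = 0.0551). *Sesn2*, another inhibitor of mTORC1 signaling, fell by 0.48 in WT cells (adjusted p = 0.0133, lost without WT vehicle library 3, -0.44, adjusted p = 0.0639) and by 0.69 in Y428F cells (adjusted p = 4.73e-05). *Nupr1*, a stress-induced chromatin protein and the 1 gene of 6 partner factors called with PTH in WT cells, fell by 0.48 (adjusted p = 0.000746). The response of *Ddit4* and *Nupr1* to PTH differed between the lines, by 0.52 and 0.45 (adjusted p = 0.0226 for each), and each call was lost in 5 of the 12 fits that left out 1 library. For *Ddit4* these left out WT PTH library 2, Y428F vehicle library 2 or 3, or Y428F PTH library 1 or 3 (0.46 to 0.52), and for *Nupr1* WT vehicle library 2, WT PTH library 1, Y428F vehicle library 1 or 2, or Y428F PTH library 3 (0.41 to 0.47). Between the lines under vehicle 3 of 8 stress targets were higher and 1 lower, against 22.4% and 22.7% of all genes, led by *Fgf21*, a secreted stress hormone, with means of 1.86 CPM in WT cells and of 14.8 CPM in Y428F cells (2.98, adjusted p = 3.09e-10), and *Ddit4* (0.90), while *Cth*, which encodes a cysteine-making enzyme, was lower (-0.70). The third higher gene was *Sesn2* (0.27, adjusted p = 0.0218), a call lost without WT vehicle library 2 or Y428F vehicle library 2 or 3 (0.20 to 0.26). Under PTH *Fgf21* and *Ddit4* were higher and *Cth* and *Stc2* lower, counts near the 22.8% and 23.0% of all genes. The call of *Stc2* (-1.66, adjusted p = 0.0279), a gene with a mean below 1 CPM, was lost without WT PTH library 1 or Y428F PTH library 2 or 3 (-1.46 to -1.22). *Fgf21* was the third gene lower with PTH in Y428F cells (-0.67, adjusted p = 0.0119), a call lost without Y428F vehicle library 3 or Y428F PTH library 1 or 2 (-0.65 to -0.57).

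Upstream of ATF4, the RNA of the 10 eIF2 kinases, phosphatase subunits and activators showed no shared direction. With PTH in WT cells 2 were higher and 1 lower, with a median of 0.06, and in Y428F cells 0 of 10 were called by edgeR, with a median of -0.05, against 4 at an unadjusted p under 0.05 and 1 by DESeq2. The shares of all genes called higher and lower were 6.88% and 4.91% in the WT line and 6.61% and 5.78% in the Y428F line. *Ppp1r15a*, the inducible subunit of the eIF2 phosphatase, fell in WT cells (-0.44, adjusted p = 0.00890, lost without WT vehicle library 3, -0.38, adjusted p = 0.0531), and *Eif2ak4*, the kinase that senses lack of amino acids, rose (0.35, adjusted p = 0.00845). *Eif2s1*, the phosphorylated subunit of eIF2 itself, rose too (0.29, adjusted p = 0.0353), a call lost without WT vehicle library 2 or 3 or any of the WT PTH libraries (0.24 to 0.34) and with library totals (0.23, adjusted p = 0.0913). Between the lines under vehicle 1 was higher and 4 lower, against 22.4% and 22.7% of all genes, with *Eif2ak2*, the kinase activated by double-stranded RNA, at -1.35 (adjusted p = 9.33e-10), *Eif2ak3*, the kinase of the endoplasmic reticulum, at -0.60 (adjusted p = 1.97e-08) and *Eif2s1* at 0.61 (adjusted p = 2.88e-07). The other two lower genes were *Ppp1r15a* (-0.31, adjusted p = 0.0066) and *Dele1* (-0.17, adjusted p = 0.0424), the latter call being lost without WT vehicle library 1 or 3 or Y428F vehicle library 1 or 2 (-0.17 to -0.12), and in 11 of 15 alternatives in all, among them DESeq2 (adjusted p = 0.0670), library totals (-0.11, 0.174) and the offsets for length and GC content (-0.11, 0.163). Under PTH *Eif2s1* and *Ppp1r15b* were higher and *Eif2ak2* and *Eif2ak3* lower, counts near the 22.8% and 23.0% of all genes. Of the 6 partner factors 0 were called with PTH in Y428F cells by edgeR (2 at an unadjusted p under 0.05, 0 by DESeq2), *Cebpb* and *Nfe2l2* were higher and *Atf5* lower in Y428F cells under vehicle, and *Atf3*, *Nupr1* and *Cebpb* were higher under PTH, when 22.8% of all genes were, with *Cebpb*, which encodes a C/EBP partner of ATF4, at 0.49 (adjusted p = 5.19e-06). The call of *Nfe2l2* (0.20, adjusted p = 0.0285) was lost without WT vehicle library 1 or any of the Y428F vehicle libraries (0.11 to 0.19) and with offsets for length and GC content (0.15, adjusted p = 0.0543), and that of *Atf5* (-0.20, adjusted p = 0.00545) with these offsets (-0.07, adjusted p = 0.299).

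Of 9 amino acid transporters the same 3 rose with PTH in both lines, while 0 were lower in WT cells (2 at an unadjusted p under 0.05 in edgeR, 0 by DESeq2) and 1, *Slc3a2*, was lower in Y428F cells (-0.17, adjusted p = 0.0488), a call lost with 5 of the 6 Y428F libraries left out, all but PTH library 1, without a filter on low counts (adjusted p = 0.0674) and with offsets for length and GC content (-0.11, adjusted p = 0.140). Of all genes 6.88% in the WT line and 6.61% in the Y428F line were higher, and 4.91% and 5.78% were lower. The medians of the list were 0.02 and -0.06. *Slc7a1*, a cationic amino acid transporter, rose from 174 to 292 CPM in WT cells (0.75, adjusted p = 7.85e-05) and from 201 to 304 CPM in Y428F cells (0.60, adjusted p = 3.85e-05). *Slc38a2*, a transporter of small neutral amino acids, rose by 0.43 (adjusted p = 0.000420) and 0.55 (adjusted p = 2.21e-06). *Slc7a11*, the cystine transporter, rose by 0.71 in Y428F cells (adjusted p = 0.00283) and by 0.55 in WT cells (adjusted p = 0.0396), the latter call being lost when scaled by library totals alone (0.49, adjusted p = 0.0616), with the offsets (0.47, adjusted p = 0.0586) and without WT vehicle library 2 or 3 or WT PTH library 1 or 2 (0.40 to 0.52). Between the lines *Slc7a5*, *Slc38a2*, *Slc3a2* and *Slc7a1* were higher and *Slc1a4* lower under vehicle, and the first 3 were higher and *Slc6a9* lower under PTH, against 22.4% and 22.7% of all genes under vehicle and 22.8% and 23.0% under PTH, with *Slc7a5*, the large neutral amino acid transporter, at 0.41 under vehicle (adjusted p = 0.000200). The calls of *Slc7a1* (0.20, adjusted p = 0.0453) and *Slc1a4* (-0.17, adjusted p = 0.0417) under vehicle were lost without WT vehicle library 2 or 3 or Y428F vehicle library 1 or 2, and that of *Slc7a1* also without Y428F vehicle library 3 (0.15 to 0.21 and -0.18 to -0.12). With DESeq2 (adjusted p = 0.0543), library totals (0.140) and the offsets (0.0955) *Slc1a4* was not called either. The call of *Slc7a5* under PTH (0.25, adjusted p = 0.0120) was lost without WT PTH library 3 (0.15, adjusted p = 0.0780) or Y428F PTH library 2 (0.19, adjusted p = 0.0675). The call of *Slc6a9* under PTH (-0.19, adjusted p = 0.0161) was lost without WT PTH library 1 or 2 or Y428F PTH library 3 (-0.17 to -0.14), with library totals (-0.12, adjusted p = 0.0953) and with the offsets (-0.07, adjusted p = 0.367).

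Most of the 20 cytosolic aminoacyl-tRNA synthetases, which charge tRNA with amino acids, were higher in Y428F cells. With PTH 0 of 20 were called in WT cells by edgeR (5 at an unadjusted p under 0.05, 0 by DESeq2) and 1, *Qars1* (-0.19, adjusted p = 0.0292), was lower in Y428F cells, a call lost with any 1 of the 6 Y428F libraries left out (-0.20 to -0.18), without a filter on low counts (adjusted p = 0.0585) and with the offsets (-0.13, adjusted p = 0.0756). This 1 of 20 was near the 5.78% of all genes called lower there. With PTH in WT cells 6.88% of all genes were called higher and 4.91% lower. In Y428F cells 15 were higher and 1, *Qars1*, lower under vehicle, and 13 were higher and *Qars1* and *Nars1* lower under PTH, with medians of 0.23 and 0.21. Of all genes 22.4% were higher and 22.7% lower under vehicle, and 22.8% and 23.0% under PTH. The call of *Nars1* (-0.18, adjusted p = 0.0257) was lost without WT PTH library 1 or 2 or Y428F PTH library 3 (-0.17 to -0.12) and with library totals (-0.11, adjusted p = 0.132). *Wars1* (0.74, adjusted p = 6.30e-08), *Farsb* (0.54, adjusted p = 6.71e-07) and *Vars1* (0.46, adjusted p = 4.26e-06) had the largest differences under vehicle among those called.

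Of the 14 other one-carbon and glycine genes 8 were higher and 3 lower in Y428F cells under vehicle, and 10 were higher and 1 lower under PTH, with medians of 0.31 and 0.34. Of all genes 22.4% were higher and 22.7% lower under vehicle and 22.8% and 23.0% under PTH, so the 3 lower genes were near the share of all genes. *Tyms*, thymidylate synthase (0.97, adjusted p = 4.22e-08), and *Mthfd1*, the cytosolic partner of the mitochondrial folate enzymes (0.80, adjusted p = 1.75e-08), were among the higher ones, and *Shmt1* and *Amt* were among the lower. *Amt*, of the glycine cleavage system, differed by -1.10 (adjusted p = 0.0267) at a mean of 1.94 CPM in WT cells, a call lost with each of 4 of the 6 libraries left out, WT vehicle library 1 or 2 or Y428F vehicle library 1 or 3 (-1.09 to -0.76). With PTH in WT cells 1 of 13 tested was higher and 1 lower, near the 6.88% and 4.91% of all genes. The higher one, *Mthfd1l* (0.29, adjusted p = 0.0455), lost its call without WT vehicle library 2 or 3 or WT PTH library 1 or 2 (0.24 to 0.29) and with library totals (0.23, adjusted p = 0.0983). In Y428F cells 0 of 14 were called with PTH by edgeR (4 at an unadjusted p under 0.05, 1 by DESeq2). In that line 6.61% of all genes were called higher and 5.78% lower with PTH. Of the 6 proline synthesis and transaminase genes 0 were called with PTH in either line by edgeR (1 in each at an unadjusted p under 0.05, and 1 in Y428F cells by DESeq2), and in Y428F cells 2 were higher, among them *Aldh18a1*, and *Gpt2* was lower under vehicle, and 1 was higher and *Gpt2* lower under PTH, against 22.8% and 23.0% of all genes. Under vehicle the call of *Aldh18a1* (0.16, adjusted p = 0.0402) was lost without WT vehicle library 1 or 2 or Y428F vehicle library 1 or 3 (0.12 to 0.16), and that of *Gpt2* (-0.19, adjusted p = 0.0146) without WT vehicle library 1 or Y428F vehicle library 2 (-0.17 to -0.14) and with library totals (-0.13, adjusted p = 0.0755).

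**Figure D5:**
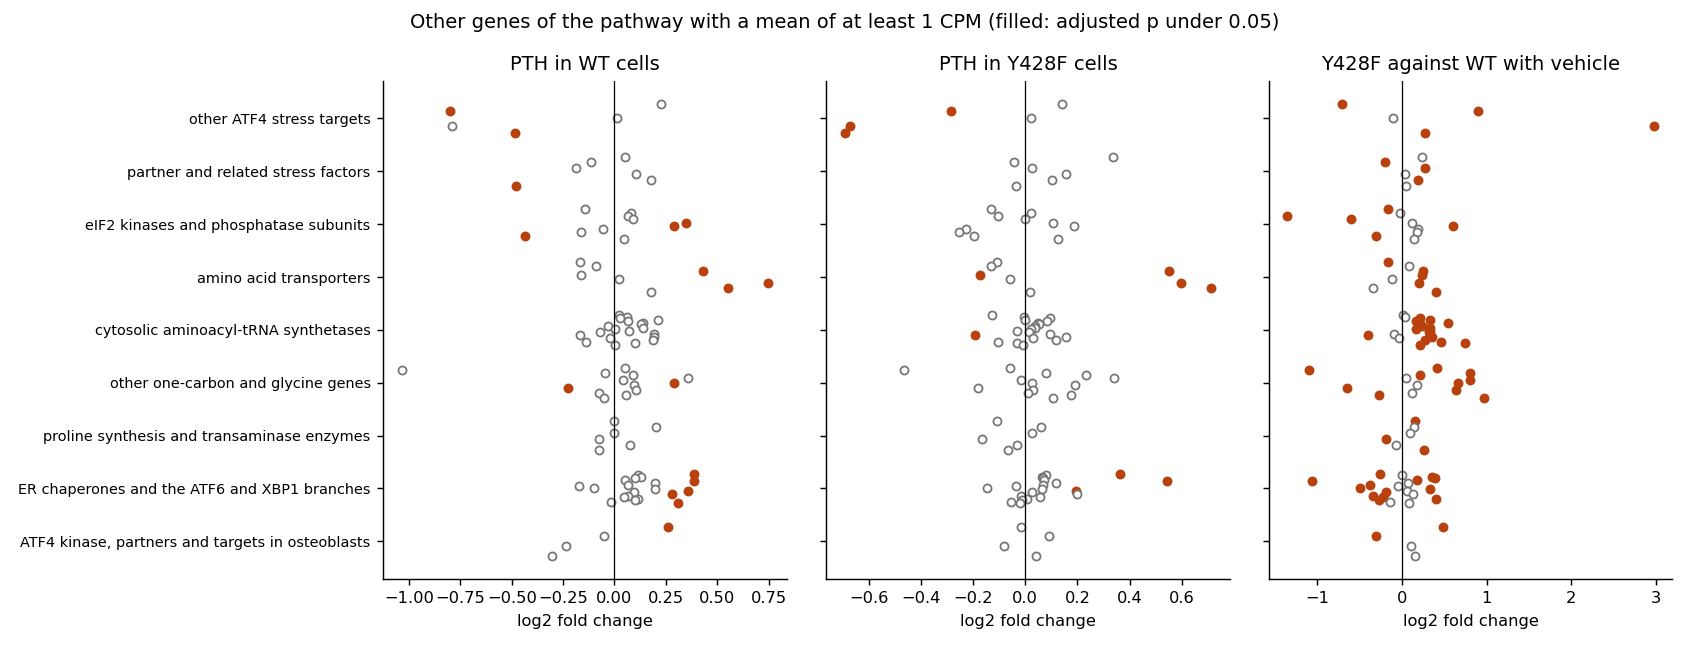
Log2 fold change (horizontal axis) of the other genes of the pathway with a mean of at least 1 CPM, by group of genes (rows), for PTH in WT cells, PTH in Y428F cells and Y428F against WT cells under vehicle. Filled points passed an adjusted p of 0.05, and 15 of the 20 synthetases lie to the right as filled points in the last panel, while 0 are filled in the first. Of all genes tested 22.4% were called higher in the last comparison, and 6.88% higher and 4.91% lower in the first.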

How the data were processed

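Total RNA was poly(A)-selected and sequenced in bulk. The authors mapped the reads with STAR 2.7.10b to GRCm39 and deposited expected counts per gene from RSEM, not scaled for library size or length. A sample was kept by the authors at an RNA integrity number above 6. Of 56980 identifiers 56236 were matched to GENCODE vM39 by their stable part, which gave symbols, positions and the lengths behind RPKM.

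Groups were taken from the library titles. Expected counts were rounded and tested with edgeR 4.0.16 in R 4.3.3 (TMM, a total of at least 10 counts, quasi-likelihood test, Benjamini-Hochberg adjustment over all genes tested). PTH in WT cells was fitted on 6 libraries and the other 4 comparisons on 12. Standard errors and 95% confidence intervals came from the same fits, and CPM used TMM factors over 12 libraries. Pairs of libraries from 1 group differed beyond counting noise (chi-square per degree of freedom from 2.94 to 15.2 over 12 pairs).

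The 10 genes, the gene lists and the marker lists were chosen with earlier results of these data known. The 10 genes were named in every comparison, *Yap1* in every library, and of each list those among the 3 called genes with the largest log2 fold change at a mean of at least 1 CPM, and any gene whose response to PTH differed between the lines. *Dele1*, *Ppp1r15b*, *Slc1a4*, *Slc6a9*, *Nars1*, *Stc2*, *Shmt1* and the stromal markers were named after their values were seen, to complete small counts, and some list genes are not reported here by name. Alternatives were the Wald test or the size factors of DESeq2 1.42.0, library totals alone, other filters, a replicate block, offsets for length and GC content, a stricter limit, another choice of libraries and each library left out in turn. The tests were tried on simulated counts first. Reads were not analysed here.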

Additional observations from a re-analysis of the deposited data

Results flagged for a closer look

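The change of *Chac1* with PTH differed between the cell lines by a log2 fold change of 0.575 (Y428F minus WT, Benjamini-Hochberg adjusted p = 0.0355 in edgeR), the only one of the 10 genes called in the main test of this difference, while *Atf4* was called with DESeq2 (adjusted p = 0.0210), without a filter on low counts (0.00191) and with offsets for length and GC content (0.0285). It was positive in all 21 alternatives (0.46 to 0.68, adjusted p from 1.39e-06 to 0.107). Groups of 3 libraries are too small for the search for single outlying libraries, so none was made.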

How the results depend on the processing

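No called value of the 10 genes changed sign under any of the alternatives. For PTH in WT cells, the number of genes called higher, 0 of 10, became 1 without a filter on low counts, 2 with offsets for length and GC content, 1 with these offsets and the replicate block, and 0 to 3 when single libraries were left out, while the number called lower stayed at 3 in those fits and became 2 at the stricter limit, which asked for an adjusted p under 0.01 with a log2 fold change beyond 0.3. For PTH in Y428F cells, the number called higher, 1, became 2 with DESeq2, 2 without a filter, 2 with the offsets and 3 with the offsets and the replicate block, and the number called lower, 1, became 3 with library totals, 2 with DESeq2, 2 without a filter, 2 with at least 10 counts in every library, 2 with the replicate block and 3 in a fit of the 6 Y428F libraries (1 to 2 with each library left out). Between the lines 7 to 9 genes were called higher under vehicle and 7 to 8 under PTH when single libraries were left out, and 6 in each at the stricter limit, where *Asns* and *Phgdh* were not called, and the number called lower under vehicle, 1, became 0 at the stricter limit and 0 to 1 with each library left out. For the difference in response, the number called higher, 1, became 2 with DESeq2, 2 without a filter, 2 with the offsets, 2 with the offsets and the replicate block, 0 at the stricter limit and 0 to 1 with each library left out. The causes were not tested, except that leaving out a library also leaves fewer samples.

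The replicate numbers gave no sign of pairing, since the deviations of same-numbered libraries had a mean correlation of 0.0191 over 18 pairs (-0.18 to 0.34) and 3 of 12 libraries correlated best with their own number. With library totals alone the share of called genes that were higher moved from 58.4% to 38.0% for PTH in WT cells and from 53.4% to 38.1% in Y428F cells. The lowest count of any of the 10 genes in a library was 455, whereas *Bglap*, *Bglap2* and *Tnfsf11* had too few counts to test.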

Other observations

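Of 20 genes for endoplasmic reticulum (ER) chaperones and for the ATF6 and XBP1 branches of the unfolded protein response, some rose with PTH. In WT cells 5 of 20 were called higher and 0 lower (median log2 fold change 0.11, against -0.01 for all genes), and in Y428F cells 3 were higher and 0 lower (median 0.06, against -0.01). At an unadjusted p under 0.05 edgeR had 0 lower in WT cells and 1 in Y428F cells, and DESeq2 called 0 lower in either line. Of all genes 6.88% were higher and 4.91% lower in the WT line, and 6.61% and 5.78% in the Y428F line. *Atf6*, which encodes an ER stress sensor, rose by 0.39 in WT cells (Benjamini-Hochberg adjusted p = 0.00135 in edgeR) and by 0.36 in Y428F cells (adjusted p = 0.000305). *Dnajb9*, an ER co-chaperone, rose in WT cells from a mean of 24.1 to 31.2 CPM and in Y428F cells from 11.6 to 16.8 CPM. *Hspa5*, which encodes the chaperone BiP, rose by 0.36 in WT cells, a call lost without WT PTH library 1 (0.35, adjusted p = 0.0531), and by 0.19 in Y428F cells, a call lost with any 1 of the 6 Y428F libraries left out, with library totals (0.15, adjusted p = 0.107) and with offsets for length and GC content (0.15, adjusted p = 0.0545). Between the lines 5 of the 20 were higher and 8 lower in Y428F cells under vehicle, and 5 and 10 under PTH, against 22.4% and 22.7% of all genes under vehicle and 22.8% and 23.0% under PTH, so the number higher was near the share of all genes, with *Dnajb9* at -1.06 and *Herpud1*, a part of ER-associated degradation, at -0.49 under vehicle.

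Of 7 genes that bind, phosphorylate or answer to ATF4 in osteoblasts 4 were tested, since *Bglap*, *Bglap2* and *Tnfsf11* did not pass the filter on low counts. *Rps6ka3*, which encodes the kinase RSK2, had under vehicle a mean of 73.6 CPM in WT cells and of 103 CPM in Y428F cells (0.48, adjusted p = 2.44e-05), and *Runx2*, the osteoblast transcription factor, had 90.2 and 73.2 CPM (-0.30, adjusted p = 0.000918). With PTH *Rps6ka3* was called higher in WT cells (0.26, adjusted p = 0.0320), a call lost without WT vehicle library 2 or 3 or WT PTH library 1 or 2 (0.22 to 0.30), and also with the replicate block (0.26, adjusted p = 0.0509), library totals (0.20, 0.0725), the offsets for length and GC content (0.18, 0.0818) and the offsets with the block (0.18, 0.115). In that line 6.88% of all genes were higher and 4.91% lower, and in the Y428F line, with 6.61% and 5.78%, 0 of the 4 were called by edgeR, also at an unadjusted p under 0.05, or by DESeq2. Between the lines 1 of the 4 was higher and 1 lower under vehicle, near the 22.4% and 22.7% of all genes, and 2 were higher under PTH, against 22.8%. Under PTH *Txlng* (0.51, adjusted p = 0.00405) and *Rps6ka3* (0.21, adjusted p = 0.0279) were higher in Y428F cells, the former call being lost without Y428F PTH library 3 (0.28) and the latter without WT PTH library 3 or Y428F PTH library 2 or 3 (0.12 to 0.18).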
